A study of Mus musculus with 24 samples.

Results

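TRAJ30 is 1 of the joining gene segments of the mouse T cell receptor α locus, and its T cell receptor α (TCRα) sequences were followed here across the 24 tumors of 12 mice. Members were all rows of the 24 TCRα clone tables with TRAJ30 as the J gene, no stop mark and at least 2 counts. TRAJ30 was selected on these same data because its clonotypes recurred between mice, so its recurrence, its V partners and its rank among the J segments are given as description, with no test. Tests between groups of mice and between the tumors of a mouse were contrasts that the choice did not use. In-frame and marked rows were compared too, but the in-frame rows were those that the choice used. A clonotype was 1 CDR3 amino acid sequence with 1 V gene and 1 J gene. The rule found 4476 rows with 782951 counts, which formed 2110 TRAJ30 clonotypes of 35452 clonotypes in all.

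During T cell development a V segment is joined to a J segment to make the TCRα chain, with bases trimmed from both ends and others added between them. The join lies in the third complementarity-determining region (CDR3), the loop that contacts the peptide held by an MHC molecule. One CDR3 amino acid sequence can be written by several nucleotide sequences, so a CDR3 that arose in separate mice can differ in its codons. In the RefSeq gene table of GRCm38.p6, Traj30 is a J segment of chromosome 14 between Traj31 and Traj29. The build behind the clone tables is not given in the sources used here, and no coordinates were used.

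All mice were female BALB/c, 7 to 9 weeks old, and carried CT26.CL25, a clone of the CT26 colon carcinoma that expresses bacterial β-galactosidase, under the skin of both flanks. RNA from each whole tumor was sequenced for TCRs, so T cells were not sorted, and fewer T cells of a clone cannot be told apart from less receptor RNA per cell. In 3 time-matched mice (6, 12 and 14) both tumors were taken on day 13. In 9 time-separated mice the 2 tumors were taken 11 days apart. The untreated group (mice 4, 17 and 19) is the one the paper also refers to as vehicle. The others were given decitabine (DAC, an inhibitor of DNA methylation) at 0.5 mg/kg (mice 3, 11 and 20) or 2 mg/kg (mice 7, 10 and 16). DAC began 3 days after surgery, ran for 5 days and ended 4 days before the later harvest. The tumor removed at surgery was thus taken before DAC, and each mean over the tumors of a DAC mouse includes it. Which of tumors 1 and 2 was removed first is not stated in the labels. Retained depth ran from 26623 to 846655 counts per tumor, with TRAJ30 counts from 776 to 242095. Mouse 12 gave the 2 deepest tumors.

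The end of the CDR3 that TRAJ30 encodes was seen most often as the 9 residues DTNAYKVIF. The main nucleotide sequence of the largest TRAJ30 clonotype in each mouse is shown to display how little sequence separates the mice. Capitals mark the bases between the first 6 and the stretch identical to the consensus TRAJ30 end.
Mouse 14, TRAV7-3: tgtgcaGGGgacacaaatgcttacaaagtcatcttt
Mouse 6, TRAV7-1: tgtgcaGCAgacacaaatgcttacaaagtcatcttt
Mouse 4, TRAV7-2: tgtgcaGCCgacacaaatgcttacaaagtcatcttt
Mouse 3, TRAV7-1: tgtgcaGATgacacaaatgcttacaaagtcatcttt
Mouse 7, TRAV7-1: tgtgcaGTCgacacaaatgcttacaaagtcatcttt
Mouse 20, TRAV7-1: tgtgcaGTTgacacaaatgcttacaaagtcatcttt
Mice 10 and 17, TRAV12-1: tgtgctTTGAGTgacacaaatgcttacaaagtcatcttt
Mouse 19, TRAV12-2: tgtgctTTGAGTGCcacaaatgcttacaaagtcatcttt
Mouse 16, TRAV14N-3: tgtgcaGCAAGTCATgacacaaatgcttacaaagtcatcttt
Mouse 11, TRAV6-5: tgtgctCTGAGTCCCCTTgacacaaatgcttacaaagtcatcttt
Mouse 12, TRAV16D/DV11: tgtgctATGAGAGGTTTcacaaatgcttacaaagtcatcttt
In 6 of the 12 mice the largest TRAJ30 clonotype used a TRAV7 gene and a 12-residue CDR3 in which 1 codon stood between the first 6 bases and the full TRAJ30 end.

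TRAJ30 took the highest mean share of TCRα counts of the 45 TRAJ segments, at 11.6% ± 9.52 (SD, n = 12 mice, each the mean of its tumors). TRAJ15 followed at 6.67% and TRAJ49 at 6.60%. The share of TRAJ30 varied widely between mice, and it was the leading segment in 4 of 12 mice and 7 of 24 tumors, and as low as rank 21 in tumor 2 of mouse 16. Among time-matched mice, the shares of tumors 1 and 2 were 3.51% and 5.34% for mouse 6, 29.3% and 28.6% for mouse 12, and 25.8% and 22.3% for mouse 14. Mice 12 and 14 were thus high in both tumors, and mouse 6 was low in both. Untreated mouse 4 had 5.24% and 3.47%, mouse 17 had 13.2% and 14.6%, and mouse 19 had 6.51% and 34.8%, whose tumor 2 held the highest share of the 24. With DAC at 0.5 mg/kg, mouse 3 had 4.73% and 1.52%, mouse 11 had 17.0% and 22.4%, and mouse 20 had 1.89% and 3.16%. Mouse 11 was again high in both tumors. With DAC at 2 mg/kg, mouse 7 had 10.4% and 5.77%, mouse 10 had 6.87% and 9.42%, and mouse 16 had 2.05% and 0.574%. Every group held at least 1 mouse under 5% and the groups overlapped. The counting error was small beside this spread: in the shallowest tumor, tumor 2 of mouse 7, the exact 95% binomial interval was 5.49% to 6.06%. Such intervals cover counting error only.

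**Figure D1:**
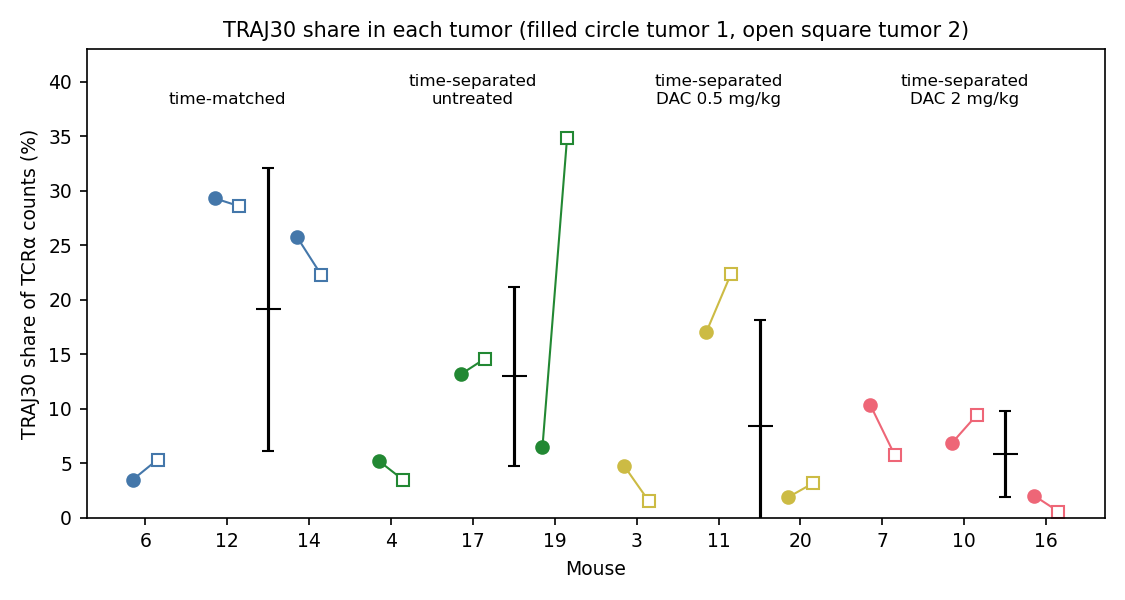
TRAJ30 share of TCRα counts (vertical axis, %) in tumor 1 (filled circle) and tumor 2 (open square) of each mouse (horizontal axis), coloured by group, with the group mean and SD over 3 mice as black bars; the lower bar of the DAC 0.5 mg/kg group is cut off at 0. Shares ran from 0.574% to 34.8%, and mouse 19 shows the widest gap between its tumors.

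By group, the TRAJ30 share was 19.1% ± 13.0 (SD, n = 3) in time-matched mice, 13.0% ± 8.20 in untreated time-separated mice, 8.45% ± 9.75 with DAC at 0.5 mg/kg and 5.85% ± 3.93 with DAC at 2 mg/kg. The 3 time-matched mice were on average 10.1 percentage points above the 9 time-separated mice, a difference within the spread between mice (exact two-sided permutation test over mice, p = 0.118, adjusted p = 0.625 over 45 TRAJ segments). No segment passed an adjusted p under 0.05 in this comparison (0% of 45), and none had an unadjusted p under 0.05. Against the untreated time-separated mice alone the difference was 6.17 points (exact permutation p = 0.5, where 3 against 3 cannot go below 0.1). It ranged from 1.26 points without mouse 12 and 1.86 without mouse 4 to 13.5 without mouse 6, so its size turned on single mice. When the largest TRAJ30 clonotype of each mouse was left out, the first difference shrank to 1.62 points and the second turned to -1.33 points. By share of clonotypes in place of counts they were 3.35 and 0.653 points (exact permutation p = 0.295 and p = 0.9). The differences among the 3 time-separated groups did not pass either (exact permutation test of the between-group sum of squares, p = 0.568). Means for DAC at 0.5 and 2 mg/kg lay 4.52 and 7.13 points below that of the untreated group, with exact permutation p = 0.5 and p = 0.3. The value of each DAC mouse here includes the tumor removed before DAC began.

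Leading clones carried much of the TRAJ30 share in some mice. The largest TRAJ30 clonotype formed from 21.6% of the mean TRAJ30 share in mouse 16 to 83.6% in mouse 14. In mouse 14 a TRAV7-3 clonotype with the CDR3 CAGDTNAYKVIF formed 83.6% of the mean TRAJ30 share, and in mouse 3 a TRAV7-1 clonotype with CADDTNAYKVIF formed 80.2%. In mouse 12 the 14-residue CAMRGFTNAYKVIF with TRAV16D/DV11 held 18.69% and 17.98% of all TCRα counts of tumors 1 and 2. In mouse 16 the largest TRAJ30 clonotype, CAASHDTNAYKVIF with TRAV14N-3, held 0.567% of tumor 1 and had no retained count in tumor 2. TRAJ30 clones were therefore large in some mice and minor in others.

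Of the 240 places among the 10 largest clonotypes of each tumor, TRAJ30 held 30 (12.5%), ahead of TRAJ49 with 22 and TRAJ13 with 17. They lay in 17 tumors and belonged to 12 clonotypes, and TRAJ30 was the single largest clone in 5 tumors. Of those 30 places, 17 were taken by 12-residue CDR3s that joined a TRAV7 gene to the full TRAJ30 end. Tumor 2 of mouse 19 alone held 4 places: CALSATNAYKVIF with TRAV12-2 at 14.3%, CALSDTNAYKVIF with TRAV12-1 at 6.64%, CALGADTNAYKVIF with TRAV6-6 at 5.22% and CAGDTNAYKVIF with TRAV7-3 at 4.12%. In tumor 1 of that mouse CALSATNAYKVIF with TRAV12-2 was at 1.35%.

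Between the tumors of a mouse, the TRAJ30 share differed by an absolute log2 ratio of 0.28 ± 0.29 (SD, n = 3) in time-matched mice and 1.01 ± 0.77 (SD, n = 9) in time-separated mice. The groups overlapped, since mouse 6 was at 0.60 and mouse 17 at 0.15. The difference of -0.72 did not pass (exact permutation p = 0.141, adjusted p = 0.214 over the 35 segments with counts in all tumors), and none of the 35 did (0%), although 7 had an unadjusted p under 0.05. The clones themselves were compared with the Morisita-Horn index over TRAJ30 clonotypes, which is 1 for identical and 0 for disjoint repertoires. It was 0.959, 1.000 and 0.999 in time-matched mice 6, 12 and 14, and ran from 0.300 in mouse 16 to 0.992 in mouse 3 among the time-separated mice, with a median of 0.709. The time-matched mean was 0.304 higher (exact permutation p = 0.0591). Without mouse 3 this p was 0.0424 and without mouse 17 it was 0.0485, so the call turned on single mice. Without the largest TRAJ30 clonotype of each mouse the difference was 0.471 (exact permutation p = 0.0682). For all other J genes together the same difference was 0.357 (exact permutation p = 0.0409). Within mice, the index for TRAJ30 was above that for the other J genes in 9 of 12 mice, by 0.0736 on average (exact sign-flip permutation p = 0.446). Mouse 19 had an index of 0.709 for TRAJ30 and 0.0849 for the other J genes, while mouse 10 had 0.420 and 0.894.

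Of the 2110 TRAJ30 clonotypes, 291 were found in 2 or more mice (13.8%), against 2864 of 35417 over all TRAJ segments (8.09%). Among TRAJ30 clonotypes 157 were in 2 mice, 69 in 3, 65 in 4 or more, and 2 in 10 mice. TRAJ30 had the highest number of such recurring clonotypes, ahead of TRAJ40 with 264 and TRAJ49 with 225, and by percentage stood behind TRAJ40 (14.7%). These ranks cover the 41 segments with at least 100 clonotypes. Many TRAJ30 sequences were close copies of larger ones: 52.9% of all retained TRAJ30 rows, with 4.53% of its counts, lay 1 base from a sequence of the same tumor, V gene and J gene with at least 100 times the counts, compared with 35.4% of rows over all TRAJ segments. In 31 recurring TRAJ30 clonotypes the first residue was not the conserved cysteine of the CDR3.

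Without those rows 132 of 1285 TRAJ30 clonotypes recurred (10.3%, 8.37% over all TRAJ segments), and TRAJ30 stood seventh by percentage, behind TRAJ22, TRAJ40, TRAJ18, TRAJ12, TRAJ52 and TRAJ49. When rows 2 bases away were left out too, a setting chosen after seeing the data, 65 of 738 recurred (8.81%, 8.83% over all TRAJ segments). The share of its clonotypes that recurred therefore did not set TRAJ30 apart once close copies were left out. With all retained rows, TRAJ27 and TRAJ31, the closest segments by number with counts in all 24 tumors, had 699 and 1137 clonotypes, of which 6.15% and 5.10% recurred. TRAJ28, with counts in 21 tumors, had 161 clonotypes, of which 3.73% recurred. Without rows 1 base from a much larger sequence these values were 6.40% for TRAJ27, 6.18% for TRAJ31 and 4.48% for TRAJ28.

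**Figure D2:**
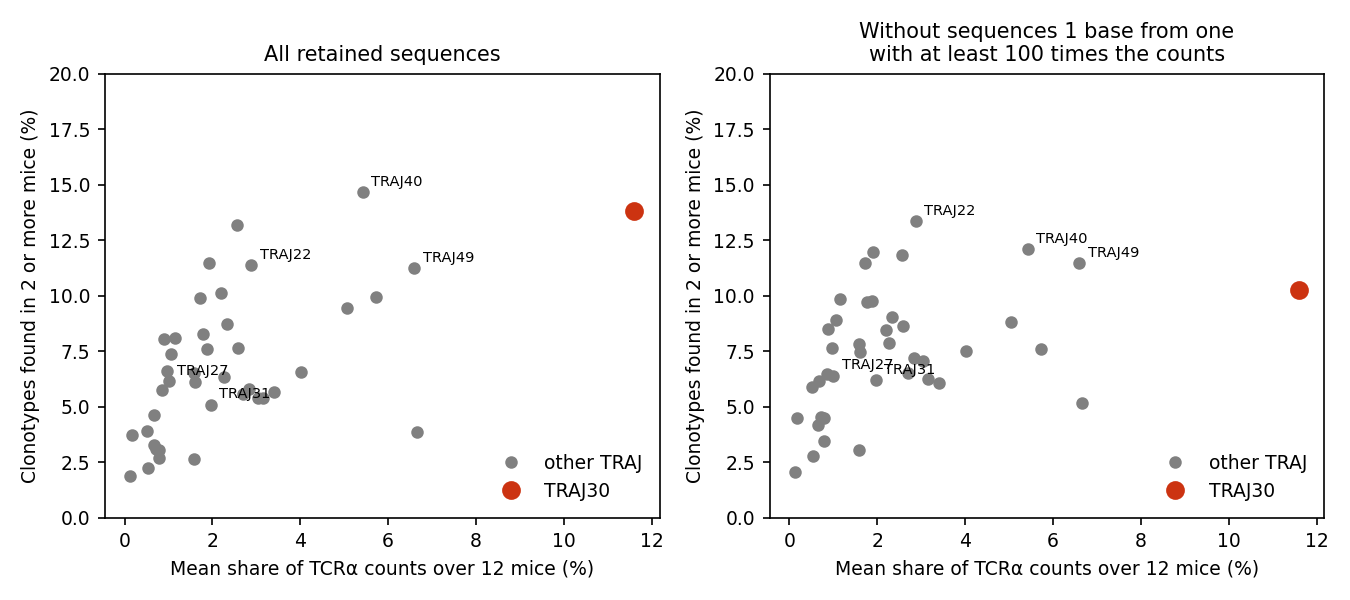
Percentage of clonotypes found in 2 or more mice (vertical axis) against the mean share of TCRα counts over 12 mice (horizontal axis, %) for the 41 TRAJ segments with at least 100 clonotypes; TRAJ30 in red. TRAJ30 stands at 13.8% with all retained sequences (left) and at 10.3% without sequences 1 base from a much larger one (right), within the range of the other segments in both panels.

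Recurring clonotypes held a large part of TRAJ30 counts in some mice. Clonotypes with at least 10 counts in each of 2 or more mice made up 61.8% ± 22.9 (SD, n = 12) of TRAJ30 counts per mouse and 30.6% ± 11.2 of the counts of the other J genes. The TRAJ30 value ran from 30.8% in mouse 12 to 94.9% in mouse 14, with mice 7, 11, 12, 16 and 19 below 50%. It was higher in 11 of 12 mice, with mouse 16 as the exception at 40.7% against 44.4%. Over pooled counts 103 TRAJ30 clonotypes of this kind held 50.9%, sixth among the segments, behind TRAJ40 (68.2%) and TRAJ13 (63.2%) at the top. At a level of at least 0.1% of a tumor, 113 clonotypes were found in 2 or more mice, of which 23 used TRAJ40 and 9 each used TRAJ30, TRAJ12 and TRAJ49.

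The most widely shared TRAJ30 clonotype was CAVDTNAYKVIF with TRAV7-1, retained in 10 mice and 18 tumors. Its highest levels were 7.27% and 5.88% for mouse 11, 3.49% and 2.58% for mouse 7, and 0.382% and 2.42% for mouse 20 (tumors 1 and 2). It was at 1.45% in tumor 2 of mouse 10 and 0.929% in tumor 1 of mouse 4, and mice 6 and 16 had only 2 and 4 counts. Levels differed widely within groups: among the time-matched mice, mouse 12 was at 0.331% and 0.356% and mouse 14 at 0.0243% and 0.0473%. Mice 3 and 17 had no retained count. The floor of 3 counts lay at 0.00455% to 0.00537% per tumor of mouse 3 and 0.00211% to 0.00258% of mouse 17, and rows with a single count had been left out.

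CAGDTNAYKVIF was found with TRAV7-1 in 10 mice and with TRAV7-3 in 9. With TRAV7-1 it was large in mouse 12 only, at 8.39% and 8.52%, followed by mouse 19 at 0.583% and 0.836%. With TRAV7-3 it was at 21.9% and 18.3% for mouse 14, 3.13% and 4.67% for mouse 17, 1.15% and 4.12% for mouse 19 and 1.47% and 0.0724% for mouse 4. The same loop was thus carried on different TRAV7 genes in mice 12 and 14. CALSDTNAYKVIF with TRAV12-1, found in 7 mice, stood at 7.93% and 7.12% for mouse 17, 1.80% and 6.24% for mouse 10, and 0.363% and 6.64% for mouse 19. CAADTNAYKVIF with TRAV7-1, also in 7 mice, was at 1.42% and 1.84% in mouse 6 and 1.07% and 1.43% in mouse 14, and at most 0.156% in any tumor of the other mice. The remaining members of the 10 most widely shared were lower. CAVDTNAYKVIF with TRAV7-3 (9 mice) reached 0.188%, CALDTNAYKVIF with TRAV7-1 (6 mice) 0.388% and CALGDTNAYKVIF with TRAV6-6 (6 mice) 0.137%. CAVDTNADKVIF and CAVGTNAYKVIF, both with TRAV7-1 and in 7 mice, never passed 57 counts in a tumor, and 3 mice and 1 mouse were left for them without rows 1 base from a much larger sequence. In that setting TRAV7-1 clonotypes were left in 9 mice for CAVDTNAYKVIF, 7 for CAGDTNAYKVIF, 4 for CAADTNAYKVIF and 3 for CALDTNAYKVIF. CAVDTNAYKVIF with TRAV7-3 was left in 7. The numbers for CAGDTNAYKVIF with TRAV7-3, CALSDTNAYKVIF with TRAV12-1 and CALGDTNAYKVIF with TRAV6-6 did not change.

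**Figure D3:**
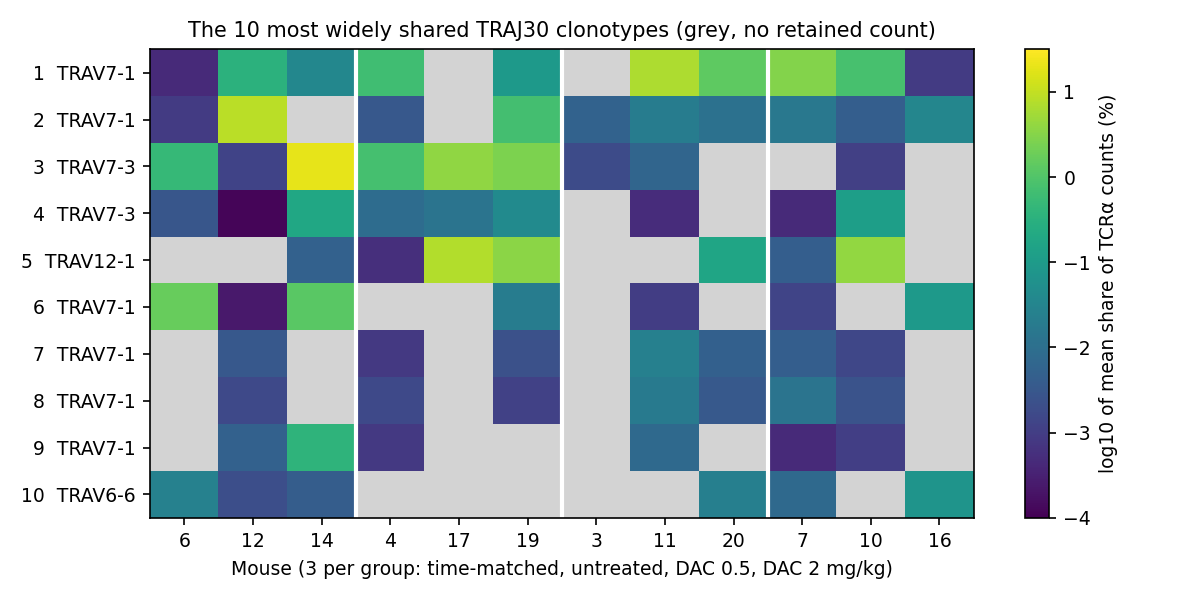
Mean share of TCRα counts over the tumors of each mouse (colour, log10 of %) for the 10 TRAJ30 clonotypes found in most mice, by rank and V gene (rows) and mouse (columns, white lines between groups); grey marks no retained count. Rank 1 is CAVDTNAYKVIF with TRAV7-1, ranks 2 and 3 are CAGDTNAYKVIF with TRAV7-1 and TRAV7-3, and 5 of the 10 reached over 1% in at least 1 mouse.

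With any V gene, both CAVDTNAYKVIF and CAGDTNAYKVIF were found in all 12 mice, the first written by 41 nucleotide sequences and the second by 51. Most of these were rare, and many were close copies of larger sequences. Without rows 1 base from a much larger sequence, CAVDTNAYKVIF with TRAV7-1 went from 36 nucleotide sequences to 5. In the same setting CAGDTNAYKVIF went from 26 to 9 with TRAV7-1 and from 33 to 4 with TRAV7-3. A few sequences that differed in the third codon held nearly all counts. These are shown because mice differed in which one they used, with the third codon in capitals.
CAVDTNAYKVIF, GTG: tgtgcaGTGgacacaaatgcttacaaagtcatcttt
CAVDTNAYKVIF, GTC: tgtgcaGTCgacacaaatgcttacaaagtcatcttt
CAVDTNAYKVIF, GTA: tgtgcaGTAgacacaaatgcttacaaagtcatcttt
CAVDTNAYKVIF, GTT: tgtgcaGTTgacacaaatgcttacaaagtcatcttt
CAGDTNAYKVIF, GGG: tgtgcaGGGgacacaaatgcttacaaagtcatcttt
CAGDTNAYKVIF, GGA: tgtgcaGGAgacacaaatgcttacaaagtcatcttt
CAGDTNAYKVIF, GGC: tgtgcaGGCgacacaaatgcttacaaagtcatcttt
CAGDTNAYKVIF, GGT: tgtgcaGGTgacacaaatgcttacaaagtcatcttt
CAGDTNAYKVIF, GGG after gcg: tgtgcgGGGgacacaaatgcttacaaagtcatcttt
All 4 valine codons and all 4 glycine codons were thus in use.

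Counts of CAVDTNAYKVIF in mice 3, 6, 16 and 17 were 33 or fewer, too few to order their codons. In the other 8 mice the main sequence carried GTG in 3, GTT in 3, and GTC and GTA in 1 each. The GTG sequence listed first had 19785 of 20123 counts in mouse 11, the GTC sequence 6537 of 8445 in mouse 7, the GTA sequence 4590 of 4956 in mouse 12 and the GTT sequence 2140 of 2343 in mouse 20. Mice also held several at once, such as GTT at 1492 and GTG at 488 counts in mouse 4, and GTG at 2557 and GTC at 1749 in mouse 10. In 2 mice the main sequence lay 1 base from a far larger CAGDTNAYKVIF sequence. Mouse 14 had GTG at 1275 beside GGG at 117560 counts, and mouse 12 had GTA at 4590 beside GGA at 119583. Whether these valine counts came from cells of their own was not tested.

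**Figure D4:**
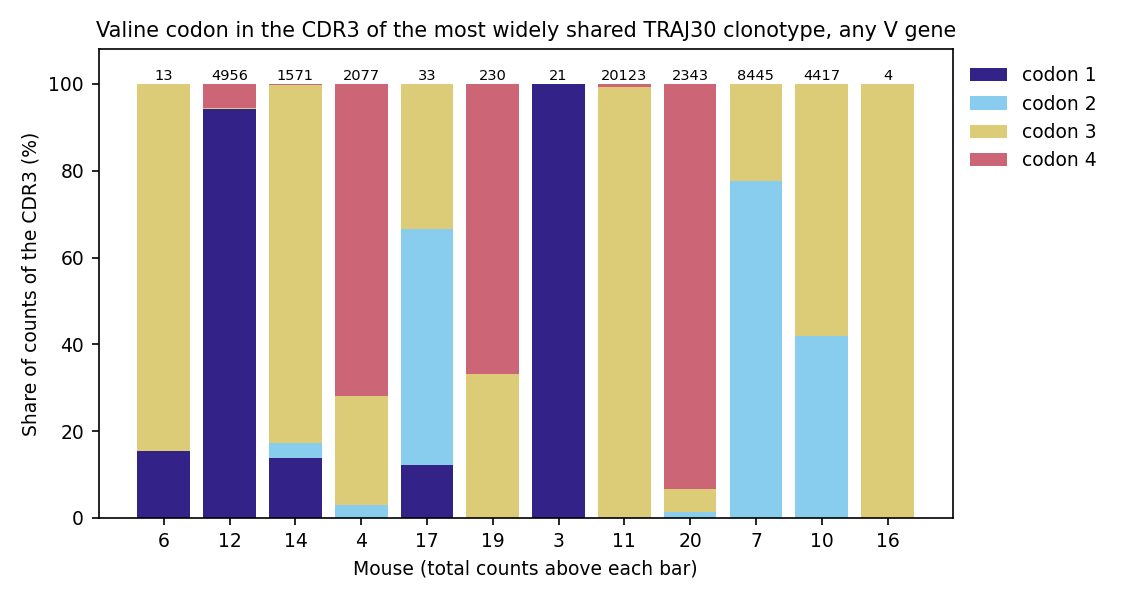
Share of the counts of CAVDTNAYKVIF, with any V gene, that carried each valine codon (vertical axis, %; codon 1 GTA, codon 2 GTC, codon 3 GTG, codon 4 GTT) in each mouse (horizontal axis, total counts above each bar). Codon 3 fills most of the bar of mouse 11, codon 2 of mouse 7, codon 1 of mouse 12 and codon 4 of mouse 20.

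For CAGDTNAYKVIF the GGG sequence had 117560 of 118159 counts in mouse 14 and the GGA sequence 119583 of 120240 in mouse 12. The GGC sequence had 8248 of 9919 counts in mouse 17, and the sequence with gcg before GGG had 2732 of 2761 in mouse 4 and 1891 of 1902 in mouse 6. Mouse 19 held GGG at 4588 and GGT at 1232 counts. The leading sequence of this loop therefore differed between mice 12, 14 and 17. Others were shared, since mice 14 and 19 had the GGG sequence in common, and the gcg and GGG sequence leading in mice 4 and 6 also had 1424 counts in mouse 17. In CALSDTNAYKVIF, by contrast, 1 nucleotide sequence (that listed for mice 10 and 17) held 19699 counts in mouse 17, 18822 in mouse 10 and 6262 in mouse 19. Over all recurring TRAJ30 clonotypes without rows 1 base from a much larger sequence, 71 of 132 (53.8%) had different main nucleotide sequences in different mice, and 1127 of 1996 (56.5%) did so for the other TRAJ segments.

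Some sequences that were very large in 1 mouse were also listed at a few counts in others. The main sequence of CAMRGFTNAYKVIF had 257946 counts in mouse 12 and 12 counts over 4 other mice, at most 5 in any of them. The GGG sequence of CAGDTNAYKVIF with TRAV7-3, at 117348 counts in mouse 14, had 4571 counts in mouse 19 and 27 over 6 further mice. Whether such low counts came from cells of those mice was not tested. With at least 10 counts per row 94 of 718 TRAJ30 clonotypes recurred (13.1%, 9.02% over all TRAJ segments).

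TRAJ30 was joined to 65 V genes, and 1 of them stood out. TRAV7-1 took 30.3% ± 27.4 (SD, n = 12) of TRAJ30 counts and 0.878% ± 1.46 of the counts of the other J genes, and was higher with TRAJ30 in 11 of 12 mice. By mouse its share of TRAJ30 counts was 64.1%, 31.8% and 7.20% in time-matched mice 6, 12 and 14, and 14.5%, 0% and 7.27% in untreated mice 4, 17 and 19. It was 86.4%, 36.3% and 51.8% with DAC at 0.5 mg/kg in mice 3, 11 and 20, and 47.2%, 9.16% and 8.28% with DAC at 2 mg/kg in mice 7, 10 and 16. The lowest of the 3 mice given DAC at 0.5 mg/kg was thus above the highest untreated mouse, while the time-matched mice and those given DAC at 2 mg/kg overlapped both groups. The DAC 0.5 mg/kg and untreated groups also did not overlap for 3 other V genes, all lower with DAC, so 4 of the 65 V genes were apart in this way (6.15%). These differences were not tested, and the DAC values include the tumors removed before DAC began. Seen from the V gene, 88.4% of all TRAV7-1 counts were joined to TRAJ30, with a median of 84.4% over mice. Mouse 12, at 98.8%, held 132214 of the TRAV7-1 counts, and mice 20, 16 and 17 were low, at 25.8%, 4.71% and 0%. TRAJ42 came next at 3.80% of the pooled counts. Among TRAV7-1 clonotypes without rows 1 base from a much larger sequence, 39.4% used TRAJ30 (140 clonotypes) and 5.35% used TRAJ40. Without rows 2 bases away as well, 12.3% used TRAJ30 (29 clonotypes) and 8.09% used TRAJ40, against a TRAJ30 share of 3.31% among the clonotypes of all V genes.

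**Figure D5:**
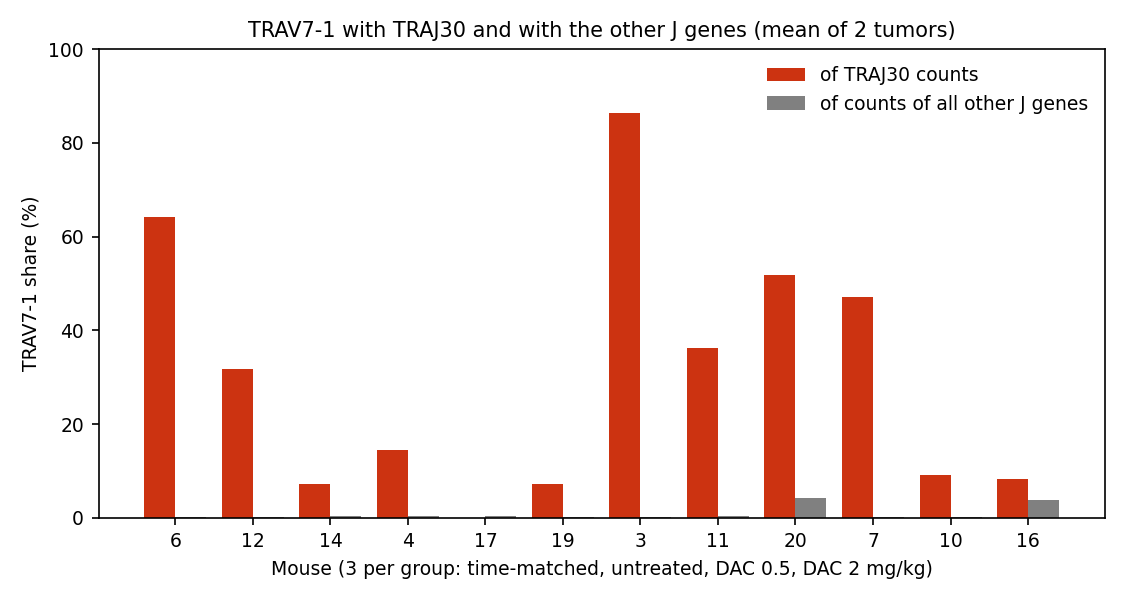
TRAV7-1 share (vertical axis, %) of TRAJ30 counts (red) and of the counts of all other J genes (grey) in each mouse (horizontal axis), each the mean of 2 tumors. TRAV7-1 was higher with TRAJ30 in 11 of 12 mice, from 7.20% to 86.4%, and at 0% of TRAJ30 counts in mouse 17.

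TRAV7-3 came next at 15.7% ± 25.1 of TRAJ30 counts against 4.25% ± 5.92 with the other J genes, and was higher with TRAJ30 in 5 mice, at 88.9% in mouse 14, 29.5% in mouse 17, 17.9% in mouse 19, 15.8% in mouse 4 and 11.3% in mouse 6. TRAV12-1 was at 10.9% ± 20.4, with 57.8% in mouse 17, and was higher with TRAJ30 than with the other J genes in 4 mice. TRAV16D/DV11 (7.08%), TRAV6-5 (5.86%) and TRAV12-2 (2.79%) each owed their mean to 1 mouse, with 66.7% in mouse 12, 50.7% in mouse 11 and 33.2% in mouse 19. By number of TRAJ30 clonotypes the order was TRAV7-1 (317), TRAV16D/DV11 (297), TRAV7-3 (258), TRAV12-1 (128), TRAV6-5 (116) and TRAV16 (102). Without rows 1 base from a much larger sequence TRAV16D/DV11 came first with 177, then TRAV7-3 with 156, TRAV7-1 with 140, TRAV12-1 with 94, TRAV16 with 73 and TRAV6-5 with 53. In 2 or more mice were 99 of the TRAV7-1 clonotypes, 71 of TRAV7-3, 62 of TRAV12-1 and 4 of TRAV16D/DV11. Without the same rows these counts were 28, 26, 29 and 4, so the order of the first 3 rested on close copies. In that setting TRAV7 genes together made up 29.3% of TRAJ30 clonotypes and 48.5% of those that recurred, against 16.1% and 17.9% for the other TRAJ segments. Without rows 2 bases away as well, these values were 19.2% and 32.3% for TRAJ30 and 14.7% and 17.3% for the others. V genes of a family resemble each other, and the same TRAJ30 CDR3 nucleotide sequence was at times given to a second V gene within a tumor. Such minor calls held 1.14% of TRAJ30 counts.

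The 12-residue TRAV7 sequences, Cys-Ala, 1 free residue and the full TRAJ30 end, were gathered after their values had been seen. They occurred in all 24 tumors and held 42.9% of pooled TRAJ30 counts. The tally by residue kept close copies of larger sequences, so its numbers of residues and of mice can include them. Of the 13 residues seen at the free position, glycine had 259077 counts in 12 mice, valine 43659 in 11, alanine 23421 in 8, aspartate 4718 in 5, and leucine 2318 in 7. Their summed share of TCRα counts was 2.43% to 22.1% in time-matched mice and 0.129% to 6.62% in time-separated mice, and at least 1% in 10 of 12 mice. Mice 10 and 16, both given DAC at 2 mg/kg, were the ones below 1%, while mouse 7 of the same group was at 5.31%. Glycine, valine, aspartate and alanine peaked in different mice: glycine was highest in mouse 14 at 20.1%, valine in mouse 11 at 6.58%, aspartate in mouse 3 at 2.51% and alanine in mouse 7 at 1.72%. Leucine was also highest in mouse 14, at 0.376%. With any V gene, valine was ahead of alanine in mouse 7, at 8445 against 6021 counts.

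Recurring TRAJ30 CDR3s were shorter than those of 1 mouse and more often kept the J end. Without rows 1 base from a much larger sequence, 70 of the 132 recurring clonotypes had 12 residues (53.0%) and 45 had 13, while 32.9% of the TRAJ30 clonotypes of 1 mouse had 12. Among the other TRAJ segments 13.8% had 12 residues in both sets. Without rows 2 bases away as well, the TRAJ30 values were 41.5% and 25.9%. The whole DTNAYKVIF end was present in 53.0% of recurring TRAJ30 clonotypes and 21.8% of those found in 1 mouse, and in 78.5% and 33.7% without rows 2 bases away. Recurring sequences of the other TRAJ segments also kept more of the J end, with a median of 27 bases against 25 for those of 1 mouse. For TRAJ30 these medians were 25 and 23.5.

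TRAJ30 was also compared between in-frame clonotypes and rows carrying the stop mark, which can include rearrangements that make no receptor. The in-frame side is the set on which TRAJ30 was chosen, so it is not independent of that choice. TRAJ30 made up 7.13% of in-frame clonotypes and 5.91% of marked sequences (mean of 12 mice), higher in frame in 9 mice. This did not pass (exact sign-flip permutation p = 0.0874, adjusted p = 0.262 over 45 segments), where 5 of 45 segments did (11.1%). It also depended on the count minimum: with at least 10 counts the difference turned to -1.38 points, and with at least 1 it was 2.76 points (exact sign-flip permutation test, adjusted p = 0.0229, where 8 of 45 segments passed, 17.8%). By share of counts in place of sequences it was 5.89 points (exact sign-flip permutation p = 0.00928, adjusted p = 0.0596). The mark was no clean sign of a failed rearrangement: 89.4% of the 1909 marked TRAJ30 rows held an undetermined base, against 69.0% of those of the other J genes, and 96.1% of these TRAJ30 rows matched a retained sequence of the same tumor and V gene at all other bases. Without such rows TRAJ30 made up 2.17% ± 1.71 of marked sequences, 4.95 points below its in-frame share. That setting, chosen after seeing the data, takes rows from the marked side only and left 202 TRAJ30 rows there, so no test is given for it. When close copies were left out of the in-frame side as well, the difference was 3.36 points. This setting too was chosen after seeing the data and kept the same marked rows, with a different filter on each side. No test is given for it either.

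Among the segments with counts in all 24 tumors, those whose mean share per mouse was most like that of TRAJ30 were only weakly so. Over 12 mice Spearman's rho was 0.33 for TRAJ48, 0.31 for TRAJ16 and 0.27 for TRAJ33, the J gene of mucosal-associated invariant T cells. The sparse TRAJ25 (counts in 1 tumor) and TRAJ23 (14 tumors) stood at 0.39 and 0.38. The shares of a tumor sum to a whole, so the points are not independent of each other.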

How the data were processed

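TCRs were amplified from whole-tumor RNA with the SMART-Seq Mouse TCR kit, and the authors ran the reads, which carry molecular identifiers, through Cogent NGS Immune Profiler 2.0. The deposited TCRα tables give read counts per clone; whether identifiers had been merged before counting is not given in the sources used here. The TCRβ tables were not used. Rows without a stop mark and with at least 2 counts were kept; 13719 single-count TRAJ30 rows and 6567 marked rows were left out. Shares are percent of retained TCRα counts of a tumor, averaged over the 2 tumors of a mouse, and the mouse was the unit of every test. Exact permutation and sign-flip tests were run over mice with Benjamini-Hochberg adjustment at 0.05 over the 45 TRAJ segments, or the 35 with counts in all tumors for the ratio between tumors (Python 3.11.15; code checked on simulated data). Named clonotypes were the largest TRAJ30 clonotype of each mouse and the 10 found in most mice; V genes were the 6 highest by mean share of TRAJ30 counts and the 6 with most TRAJ30 clonotypes; J genes were, among those with counts in all 24 tumors, the nearest below and above in number and the 3 most correlated. Alternatives were other count minimums, clonotype definitions, shares of clonotypes in place of counts and the reverse, thinning to the smallest library (20 draws), removal of the largest clones or of rows 1 base from a sequence with at least 100 times the counts, and leaving out each mouse. TRAJ30, its members and these lists were chosen with earlier results of these data known. That the mice are separate animals is stated by the labels.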

Additional observations from a re-analysis of the deposited data

Results flagged for a closer look

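Among the 9 time-separated mice, mouse 19 stood apart in the share of its clonotypes that used TRAJ30, 16.0% as the mean of its tumors, with the next mouse at 9.16%. The gap to the next mouse was 0.509 of the whole range, against a critical value of 0.493 in Dixon's test. Chance marks about 1 in 20 groups in this way, and 6 measures were examined. Its tumor 2 had 263 TRAJ30 clonotypes among 976, and its tumor 1 had 112 among 2212. Close copies of larger sequences were kept in these counts, and such copies made up 52.9% of all retained TRAJ30 rows.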

How the results depend on the processing

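Of 118 recalculations, 105 kept the direction and the side of the threshold, or stayed within 1.5 times the count. The time-matched minus untreated difference in TRAJ30 share turned to -1.33 points without the largest TRAJ30 clonotype of each mouse; the cause was not tested. The in-frame minus marked difference was 2.76 points with a minimum of 1 count (adjusted p = 0.0229, sign-flip permutation), -1.38 with a minimum of 10, 4.95 without marked rows holding an undetermined base, and 3.36 when in-frame rows 1 base from a much larger sequence were left out as well; the cause was not tested. TRAJ30 clonotypes in 2 or more mice numbered 838 with a minimum of 1 count, 94 with a minimum of 10, 132 without rows 1 base from a much larger sequence and 65 without rows 1 or 2 bases away, in each case because other rows entered or left the count. TRAJ30 held 52 of the places among the 20 largest clonotypes and 5 of the single largest places. Leaving out each mouse in turn gave 225 to 284 recurring clonotypes, the lowest without mouse 14. The time-matched minus time-separated share ranged from 5.15 to 17.4 points, the time-matched minus untreated share from 1.26 to 13.5 points, the Morisita-Horn difference from 0.256 to 0.342, and the in-frame minus marked difference from 0.853 to 1.55 points. Without mouse 6 the share difference was 17.4 points, with an exact permutation p of 0.0182 and an adjusted p of 0.584. No paired analysis was possible because the groups share no mouse, as far as the comparisons between groups go; comparisons within mice, such as in-frame against marked rows, were paired by mouse. Depth differed between tumors, and a clonotype below 3 counts in the shallowest tumor, 0.0113% of its counts, can go unseen.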
